A study of Mus musculus with 18 samples.

Results

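The genes described here are the 3 receptors that sense foreign chemicals in the liver and 7 genes of the enzyme system that oxidizes such chemicals, which are Nr1i2, Nr1i3 and Ahr, the reductase gene Por, and the cytochrome P450 genes Cyp1a2, Cyp2a5, Cyp2b10, Cyp2e1, Cyp3a11 and Cyp3a13. They were taken by gene symbol from the deposited count table, and 10 of 10 listed symbols were found among its 20105 genes. All mice were female and of the HEP-INTACT line. INTACT tags the nuclei of 1 cell type, here the hepatocyte, so that beads can retrieve them from the other liver nuclei (immunoprecipitation, IP). What drives the tag is not given in the sources used here, nor are the ages. There were 3 mice fasted for 16 h from zeitgeber time (ZT) 12, the onset of their active phase, and 3 mice fed ad libitum that were killed at the same time of day. The 6 groups, of 3 libraries each, were nuclei pulled from fresh liver of fasted and of fed mice (fresh IP), nuclei pulled from frozen liver of fasted and of fed mice (frozen IP), and nuclei that stayed behind after the pull-down from fresh liver of fasted and of fed mice (supernatant). The controls carry the same tag, and the 3 preparations come from the same 6 mice, so replicates are mice and the preparations share them.

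Nr1i2 encodes the pregnane X receptor and Nr1i3 the constitutive androstane receptor. Both are nuclear receptors that bind DNA with a retinoid X receptor and switch on genes for the oxidation, conjugation and export of drugs, bile acids and steroids. Ahr encodes the aryl hydrocarbon receptor, which binds planar aromatic compounds and pairs with ARNT to induce the Cyp1 genes. Microsomal cytochrome P450 enzymes hold a heme and take their electrons from the reductase encoded by Por. In mouse liver, Cyp1a2 is the AHR-responsive P450 that oxidizes caffeine and aromatic amines, Cyp2a5 encodes the coumarin 7-hydroxylase, Cyp2b10 is the classic target of the constitutive androstane receptor, Cyp2e1 oxidizes ethanol, acetone and other small molecules, and Cyp3a11 and Cyp3a13 belong to the Cyp3a subfamily, whose members act on many drugs and steroids, with Cyp3a11 the classic target of the pregnane X receptor.

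The count table gives each gene the length of its whole transcribed span, introns included, and the RNA is nuclear and was not selected for poly-A tails, so unspliced transcripts can be part of each value. On mm10, Nr1i2 lies on chromosome 16, 38248349 to 38294824, minus strand, with 9 exons. Nr1i3 lies on chromosome 1, 171213970 to 171218845, plus strand, Ahr on chromosome 12, 35497979 to 35534989, minus strand, and Por on chromosome 5, 135689145 to 135735326, plus strand. Cyp1a2 lies on chromosome 9, 57676937 to 57683655, minus strand, Cyp2a5 on chromosome 7, 26835339 to 26843264, plus strand, Cyp2b10 on chromosome 7, 25897658 to 25926624, plus strand, and Cyp2e1 on chromosome 7, 140763832 to 140774977, plus strand. Cyp3a11 lies on chromosome 5, 145854607 to 145879854, minus strand, and Cyp3a13 on chromosome 5, 137892933 to 137921619, minus strand. Introns make up from 71.001% of the span in Nr1i3 to 94.5% in Nr1i2, by the GENCODE M21 transcripts. Of the span of Nr1i3, 2835 bases are also covered by Tomm40l on the other strand, and the strand setting of the counting is not given. Tomm40l was at 4.01 ± 1.49 CPM in fresh IP of fasted and 5.09 ± 0.714 CPM in fresh IP of fed mice (SD, n = 3 each). In supernatant it was at 5.84 to 6.64 CPM in fasted and 6.48 to 9.23 CPM in fed mice. Reads of Cyp2a5, Cyp2b10 and Cyp3a11 can also come from close paralogs such as Cyp2a4, Cyp2b13 and Cyp3a16, and their values are uncertain to that extent.

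The promoters of the gene that rose most with fasting (Por), of a receptor that rose (Nr1i3) and of the pair of P450 genes that fell most (Cyp1a2 and Cyp2a5) are shown from 250 bases before to 50 after the start site, 5′ to 3′ along the gene, from RefSeq on GRCm38.p6, the assembly that mm10 names. They are chr5:135688895-135689194 for Por and chr1:171213720-171214019 for Nr1i3, both on the plus strand, chr9:57683606-57683905 on the minus strand for Cyp1a2, and chr7:26835089-26835388 on the plus strand for Cyp2a5. Capitals mark matches, on either strand, to GCGTG, the core that AHR and ARNT bind, to the D-box TTATGTAA or TTACGTAA of the clock output factors DBP, TEF and HLF, to the E-box CACGTG, to the nuclear receptor half-site AGGTCA, and to the HNF1 half-site GTTAAT.
Por: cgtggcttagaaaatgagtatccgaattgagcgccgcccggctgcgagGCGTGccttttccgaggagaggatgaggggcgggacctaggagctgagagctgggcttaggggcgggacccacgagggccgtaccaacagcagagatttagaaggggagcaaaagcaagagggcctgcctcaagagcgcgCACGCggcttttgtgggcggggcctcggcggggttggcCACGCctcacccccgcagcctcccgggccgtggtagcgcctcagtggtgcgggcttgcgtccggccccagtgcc
Nr1i3: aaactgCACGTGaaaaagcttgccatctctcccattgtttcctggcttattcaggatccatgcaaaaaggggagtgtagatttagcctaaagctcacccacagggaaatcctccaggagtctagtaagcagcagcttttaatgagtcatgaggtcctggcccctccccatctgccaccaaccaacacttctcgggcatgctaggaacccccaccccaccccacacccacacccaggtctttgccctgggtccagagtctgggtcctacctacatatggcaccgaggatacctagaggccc
Cyp1a2: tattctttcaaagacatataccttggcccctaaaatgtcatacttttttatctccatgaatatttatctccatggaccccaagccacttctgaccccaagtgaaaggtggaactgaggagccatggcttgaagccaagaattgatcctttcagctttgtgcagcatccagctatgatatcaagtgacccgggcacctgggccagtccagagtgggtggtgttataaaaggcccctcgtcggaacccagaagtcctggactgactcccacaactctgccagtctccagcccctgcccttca
Cyp2a5: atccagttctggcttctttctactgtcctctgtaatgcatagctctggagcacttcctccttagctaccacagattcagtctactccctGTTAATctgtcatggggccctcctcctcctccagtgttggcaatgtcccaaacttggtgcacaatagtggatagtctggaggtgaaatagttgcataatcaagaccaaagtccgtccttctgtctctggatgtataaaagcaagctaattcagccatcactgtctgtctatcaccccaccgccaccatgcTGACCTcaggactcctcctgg

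Promoter sequences were found for 9 of the 10 genes, all but Ahr. Por held GCGTG 3 times, at -202 to -198, -62 to -58 and -24 to -20 from its start site, and Cyp2b10 held it 2 times. This core stands in 32.4% of all 32851 mouse promoters of this length, against 2 of these 9. Nr1i3 held the E-box at -244 to -239, a match found in 7.15% of promoters. Cyp2a5 held the HNF1 half-site (7.10% of promoters) at -161 to -156 and the nuclear receptor half-site (16.3%) at 30 to 35, and Cyp3a11 held the nuclear receptor half-site at -162 to -157. No D-box, which stands in 1.06% of promoters, lay in the 9 windows, and Nr1i2, Cyp1a2, Cyp2e1 and Cyp3a13 held none of these letters there. A match is a run of letters and not a measured site.

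Each library held between 13828945 and 54434263 counts, and all 10 genes were tested in each comparison, none being lost to the filter on low counts. The labels were checked against cell type markers. All 15 hepatocyte markers were higher in IP than in supernatant, with a summed level of 22914 to 30787 CPM in fresh IP of fasted and 16548 to 24645 CPM in fresh IP of fed mice, against 990.4 to 1629 and 628 to 1124 CPM in their supernatants. Lower in IP were 13 of 13 markers of endothelium, 12 of 12 of Kupffer cells, 11 of 11 of stellate cells and 11 of 11 of lymphocytes, and no marker was at 0. Alb of hepatocytes was at 3.10 ± 0.23 in IP over supernatant (log2), Pecam1 of endothelium at -6.36 ± 0.20, Clec4f of Kupffer cells at -9.24 ± 0.18, Dcn of stellate cells at -4.14 ± 0.26 and Cd3e of lymphocytes at -6.10 ± 0.34. Of the same markers 12 of the endothelial and 8 of the Kupffer cell markers were higher in frozen than in fresh IP. Libraries of a group carry the letters A, B and C in the table, which stand in no label. Libraries with the same letter and feeding state varied together across the preparations, so a letter is read here as a mouse, from the data and not from the labels.

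Fasting in fresh IP shows how hepatocyte nuclei hold these transcripts after 16 h without food. The receptors Nr1i2 and Nr1i3, the reductase gene Por and Cyp3a11 rose, Cyp1a2, Cyp2a5 and Cyp2e1 fell, and Ahr, Cyp2b10 and Cyp3a13 did not pass the test. A gene is called changed at a Benjamini-Hochberg adjusted p under 0.05 in edgeR's quasi-likelihood test over all genes. Thus 4 of 10 were higher, where 12.4% of the 12548 genes tested were, and 3 of 10 were lower, where 12.6% were. The median log2 fold change was -0.27 over the 10 genes and 0.01 over all genes tested. Log2 fold changes are fasted over fed throughout, with an SE for the difference between the 2 group means on the scale of log2 CPM, counts scaled to library size. Where fasted and fed libraries of a gene did not overlap, this is said. The share of all genes without such overlap was not counted.

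Among the receptors, Nr1i2 stood at 685, 458 and 605 CPM in fasted libraries A, B and C, against 345, 330.1 and 186 CPM in fed libraries A, B and C. All fasted libraries lay above all fed ones, and fed C was the lowest of the 6. The log2 fold change was 1.05 ± 0.34, adjusted p = 0.0224. Nr1i3 had 478, 536 and 310.5 CPM in fasted and 223, 247 and 268 CPM in fed libraries (0.86 ± 0.25, adjusted p = 0.0226). Here too the groups did not overlap, with fasted C nearest to the fed mice. Tomm40l, which shares part of that span, had a log2 fold change of -0.33 (adjusted p = 0.4). Ahr did not pass the test, at 112, 114 and 123 CPM in fasted and 181, 208 and 126 CPM in fed libraries (-0.54 ± 0.22, adjusted p = 0.0566). Its fasted libraries lay close together and all below the fed ones, which spread 1.65-fold.

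Por, the gene of the reductase that feeds electrons to the P450s, had the largest rise among the 10 genes. It stood at 1607, 773 and 1021 CPM in fasted libraries, against 325, 353 and 368 CPM in fed libraries, 3.25-fold higher in the fasted mean (1.72 ± 0.31, adjusted p = 0.00448). The fasted mice differed among themselves 2.08-fold, and the lowest of them was still above the highest fed library.

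The P450 genes that passed moved in both directions. Cyp1a2 was at 6.32, 4.33 and 8.22 CPM in fasted and at 42.1, 65.3 and 41.4 CPM in fed libraries, 7.89-fold lower in the fasted mean (-2.97 ± 0.34, adjusted p = 0.00105). Cyp2a5 was at 17.7, 18.4 and 22.4 CPM in fasted and at 154, 156 and 112 CPM in fed libraries, 7.23-fold lower (-2.83 ± 0.19, adjusted p = 0.000361). For both genes the lowest fed library lay well above the highest fasted one. Cyp2e1 had 860.1, 996 and 550.4 CPM in fasted and 1165, 1551 and 1992 CPM in fed libraries (-0.95 ± 0.34, adjusted p = 0.0399). The groups did not overlap, though fasted B came close to fed A.

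Cyp3a11 rose, with 616, 535 and 903 CPM in fasted and 348, 400.4 and 312 CPM in fed libraries (0.97 ± 0.25, adjusted p = 0.0151). Cyp3a13, of the same subfamily and chromosome, had 173, 142 and 225 CPM in fasted and 206, 211 and 129.7 CPM in fed libraries (0.00 ± 0.30, adjusted p = 0.995). Its groups overlapped almost fully, and the difference between these 2 genes was not tested. Cyp2b10 was scarce, at 2.25, 0.776 and 8.78 CPM in fasted and 17.1, 21.9 and 9.92 CPM in fed libraries (-2.06 ± 1.04, adjusted p = 0.0794). All fasted libraries lay below the fed ones, but fasted C lay just below fed C and 11.3-fold above fasted B.

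Several of these outcomes changed when 1 library was left out. That also leaves fewer mice in a group, and over all genes 1429 to 2643 were then called, against 3145 with all libraries. Without fasted C, Cyp2b10 passed (-3.44, adjusted p = 0.00863), and without fed C so did Ahr (-0.72, adjusted p = 0.00966). The calls of Nr1i3 (0.70 to 0.86, adjusted p = 0.0535 to 0.0804, without fasted A, fasted B, fed A or fed B), Cyp2e1 (-1.01 to -0.74, adjusted p = 0.0812 to 0.102, without fasted A, fasted C, fed B or fed C), Nr1i2 (0.91 without fasted A and 1.01 without fasted C, adjusted p = 0.0818 and 0.0578) and Cyp3a11 (0.95 without fed A, adjusted p = 0.0516) ended, while those of Por, Cyp1a2 and Cyp2a5 held without each library in turn.

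**Figure D1:**
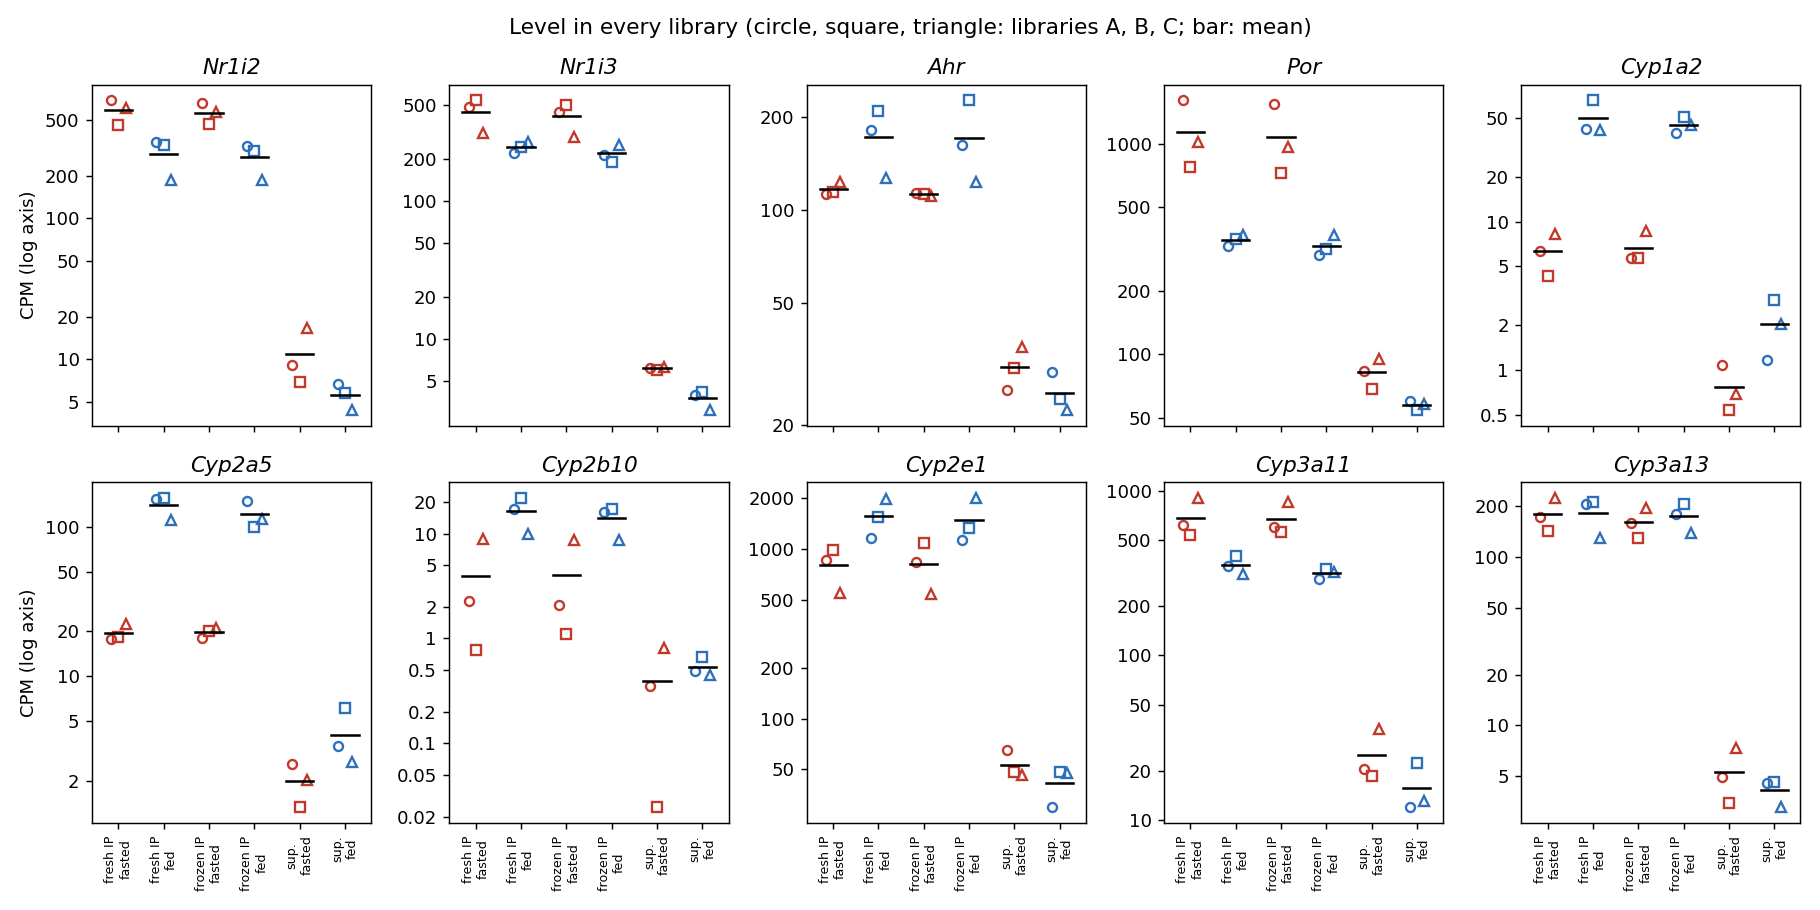
Level of each of the 10 genes in CPM (y axes, log scale) in the 18 libraries, by preparation and feeding state, with fasted libraries in red, fed libraries in blue, a marker for each library letter and a bar at the group mean. Cyp1a2 and Cyp2a5 lie far lower in fasted than in fed IP, and Por, Nr1i2, Nr1i3 and Cyp3a11 lie higher. Within each feeding state the mean of every gene is far lower in supernatant than in IP. Single libraries overlap for Cyp2b10, with 0.81 CPM in fasted C of supernatant and 0.776 CPM in fasted B of fresh IP.

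Frozen IP asks the same question in frozen tissue of the same mice. The same 4 genes were higher (4 of 10, where 11% of the 12926 genes tested were), and Cyp1a2 and Cyp2a5 were lower (2 of 10, where 11.6% were). Por had 1548, 727 and 967 CPM in fasted and 295, 318 and 371 CPM in fed libraries (1.72 ± 0.33, adjusted p = 0.00528). Cyp1a2 had 5.71, 5.65 and 8.60 CPM in fasted and 39.2, 50.7 and 44.6 CPM in fed libraries (-2.75 ± 0.23, adjusted p = 0.000444). The fasted and fed libraries of both genes stood well apart. Cyp2a5 had 18.003, 20.02 and 21.1 CPM in fasted and 149, 100.3 and 113 CPM in fed libraries (-2.62 ± 0.18, adjusted p = 0.000273). Nr1i2 averaged 562 ± 95.2 CPM in fasted and 271 ± 75.3 CPM in fed mice (SD, n = 3 each), a log2 fold change of 1.05 ± 0.29, adjusted p = 0.0178. Nr1i3 averaged 411 ± 108 CPM in fasted and 221 ± 31.5 CPM in fed mice (0.89 ± 0.26, adjusted p = 0.0228). Each of the 2 receptors was higher in every fasted library than in any fed one. Cyp3a11 averaged 670.0 ± 158 CPM in fasted and 316 ± 22.5 CPM in fed mice (1.08 ± 0.20, adjusted p = 0.00641).

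The other 4 genes did not pass in frozen IP. Cyp2e1 averaged 822 ± 272 CPM in fasted and 1496 ± 460.5 CPM in fed mice (-0.86 ± 0.38, adjusted p = 0.0702), and Ahr 112 ± 1.06 and 170.4 ± 51.8 CPM (-0.61 ± 0.25, adjusted p = 0.0685). In both, all fasted libraries lay below all fed ones, a trait whose share over all genes was not counted. Cyp2b10 had 2.10, 1.11 and 8.76 CPM in fasted and 16.1, 17.2 and 8.65 CPM in fed libraries (-1.81 ± 0.92, adjusted p = 0.0871), where fasted C overlapped fed C. Cyp3a13 averaged 162 ± 32.4 CPM in fasted and 176 ± 34.6 CPM in fed mice (-0.12 ± 0.24, adjusted p = 0.675). By DESeq2, Ahr and Cyp2e1 passed in frozen IP (adjusted p = 0.0329 and 0.0145), and Ahr in fresh IP (adjusted p = 0.0237). DESeq2 called 3649 of all genes in frozen and 3758 in fresh IP, where edgeR called 2918 and 3145. With all 18 libraries in 1 edgeR fit Ahr passed in frozen and in fresh IP (adjusted p = 0.0334 and 0.0468). So did Cyp2e1 in frozen IP (adjusted p = 0.0398). Leaving out 1 library ended the call of Nr1i3 without fasted A or B or fed A or B (0.73 to 0.88, adjusted p = 0.062 to 0.0809) and that of Nr1i2 without fasted A (0.92, adjusted p = 0.068), and made Cyp2b10 pass without fasted C (-3.11, adjusted p = 0.00648) and Ahr without fed C (-0.80, adjusted p = 0.0189).

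In the authors' deposited table, made with their own tests, 8 of the 10 genes had an adjusted p under 0.05 in both preparations, all but Cyp2b10 and Cyp3a13, where 26.8% of the 15052 genes with a value in both did in the authors' deposited table. That authors' deposited table gives Ahr -0.61 in fresh and -0.68 in frozen IP (adjusted p = 0.0206 and 0.0087). For Cyp2b10 the authors' deposited table gives -2.11 and -1.89 (adjusted p = 0.0724 and 0.11).

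**Figure D2:**
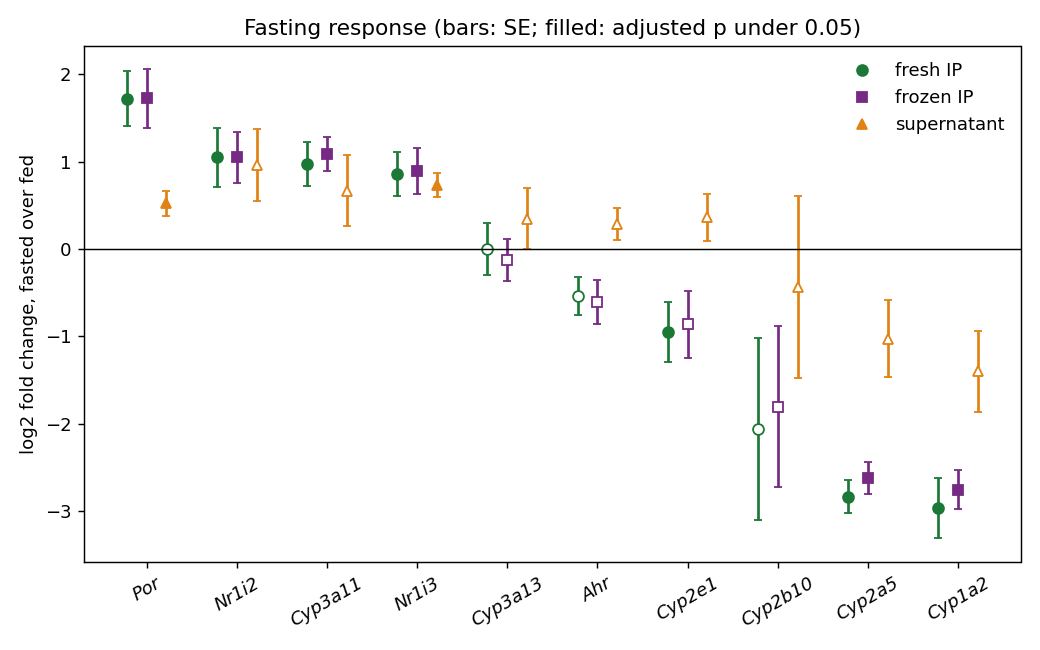
Log2 fold change, fasted over fed (y axis), of the 10 genes in fresh IP, frozen IP and supernatant, with the SE of the difference as bars and filled symbols for an adjusted p under 0.05. Por is at the upper end in IP (1.72 in both preparations) and Cyp1a2 at the lower end (-2.97 in fresh and -2.75 in frozen IP), and the supernatant values lie nearer to 0 for Por, Cyp2a5 and Cyp1a2.

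Frozen against fresh IP asks what freezing the tissue did to these transcripts. Averaged over feeding states, none of the 10 genes was called, where 4.72% of the 13162 genes tested were higher and 0.441% lower in frozen IP. The 10 log2 differences ran from -0.11 for Nr1i3 to 0.00 for Cyp2e1, with SE of 0.13 to 0.70. By edgeR 0 of the 10 had an unadjusted p under 0.05, and DESeq2 also called 0, as did a fit that blocks on the mouse, in which 2168 genes were called in place of 679. All 13 endothelial markers together came to 123 to 183 CPM in frozen and 38.9 to 85.997 CPM in fresh IP of fasted mice, and to 202 to 284 and 68.6 to 137 CPM in those of fed mice. All 12 Kupffer cell markers came to 33.6 to 43.6 CPM in frozen and 11.9 to 13.8 CPM in fresh IP of fasted mice, and to 29.2 to 102 and 8.63 to 20.01 CPM in those of fed mice, with fed B the highest in both preparations. Their part in the values of the 10 genes was not tested.

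The difference of the fasting response between frozen and fresh IP ran from -0.13 for Cyp3a13 to 0.25 for Cyp2b10 over the 10 genes. Cyp2b10 was at 1.62 without fasted C of fresh IP and at -1.05 without fasted C of frozen IP. Each of these fits kept fasted C in the other preparation, which unpairs that mouse. Fasted C had 8.76 CPM of Cyp2b10 in frozen and 8.78 CPM in fresh IP. None of the 10 genes was called, and 0% of the 13162 genes were higher and 0% lower. By edgeR 43 genes had an unadjusted p under 0.05, none of them among the 10. DESeq2 gave 0 genes, and so did a fit that blocks on the mouse. The SE of these differences was 0.26 for Cyp2a5 and up to 1.39 for Cyp2b10. It takes libraries as independent although the preparations share mice, so it includes the spread between mice and is no limit of detection. How small a difference could be detected was not tested.

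Single mice differed in these genes, and the differences recurred in both preparations. The order of the 3 fasted mice was the same in frozen and fresh IP for 9 of 10 genes, all but Ahr, and that of the 3 fed mice for 6 of 10. Over well-expressed genes at large, deviations of libraries with equal letters also correlated at 0.555 to 0.902 between these preparations. The recurrence is thus not particular to these genes, and the share of all genes that kept their order was not counted. Fasted mouse C was highest in Cyp1a2, Cyp2a5, Cyp2b10, Cyp3a11 and Cyp3a13 and lowest in Cyp2e1 and Nr1i3 in both. It had 8.76 CPM of Cyp2b10 in frozen and 8.78 CPM in fresh IP, against 1.11 and 0.776 CPM in fasted mouse B. Fasted mouse A was highest in Por and Nr1i2. Among fed mice, C was highest in Cyp2e1, Por and Nr1i3 and lowest in Nr1i2, Ahr, Cyp2b10 and Cyp3a13. For Cyp2b10 and Cyp3a13 the order of the mice was the same in the supernatant too, in both feeding states.

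**Figure D3:**
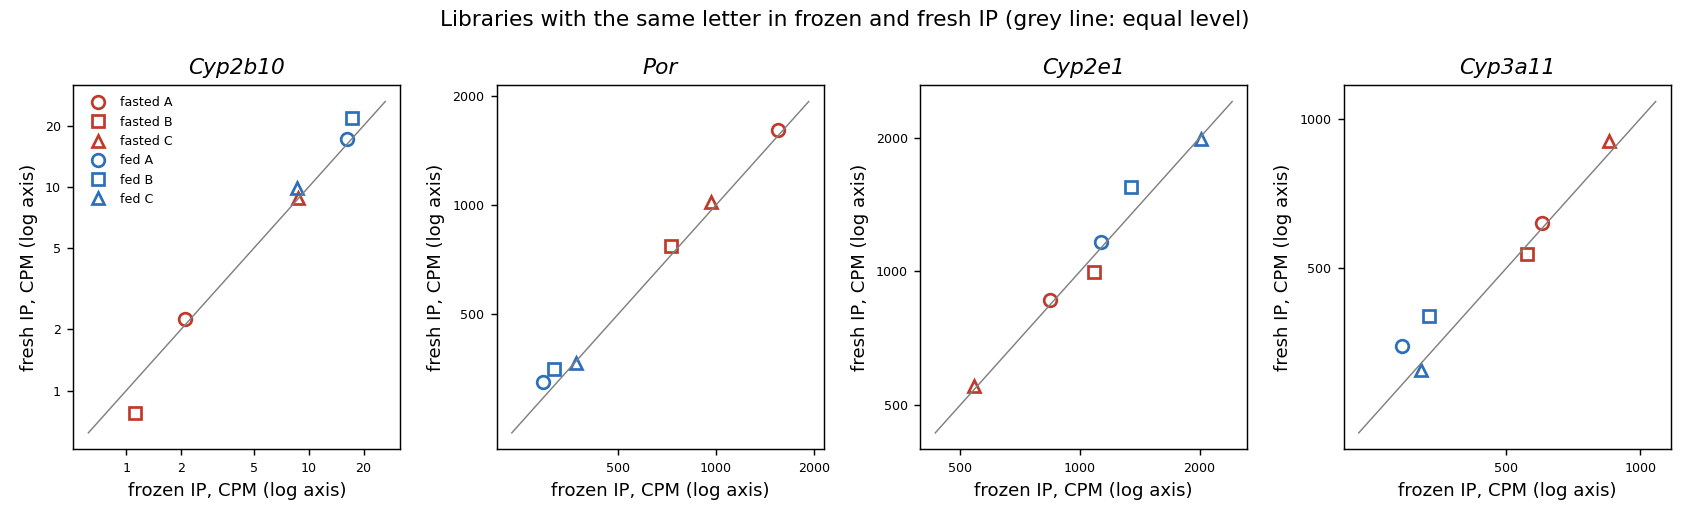
CPM in frozen IP (x axes) against CPM in fresh IP (y axes), both on log scales, of Cyp2b10, Por, Cyp2e1 and Cyp3a11 in 6 mice read by library letter, fasted in red and fed in blue, with a grey line of equal level. The points lie near the line, and for Cyp2b10 fasted C sits beside fed C.

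The comparison of IP with supernatant asks how far these transcripts belong to the pulled-down nuclei. All 10 genes were higher in fresh IP, where 42% of the 14322 genes tested were higher and 43% lower, and the median log2 difference was 4.34 over the 10 genes, 4.67 over the 15 hepatocyte markers and 0.00 over all genes. In bulk nuclei, fewer cells of a type and less RNA per nucleus cannot be told apart. The pregnane X and constitutive androstane receptors were the most enriched, with Nr1i3 at 478, 536 and 310.5 CPM in fresh IP and 6.17, 5.98 and 6.26 CPM in supernatant of fasted mice (6.06 ± 0.14 over both feeding states) and Nr1i2 at 5.65 ± 0.27. The aryl hydrocarbon receptor gene was the least enriched, with Ahr at 112, 114 and 123 CPM in fresh IP and 26.1, 30.7 and 35.9 CPM in supernatant of fasted mice, and at 181, 208 and 126 and 29.8, 24.4 and 22.4 CPM in those of fed mice (2.28 ± 0.14). Por followed at 3.14 ± 0.17, and the P450 genes lay between, from 3.75 ± 0.29 for Cyp1a2 to 5.23 ± 0.23 for Cyp3a13. The largest adjusted p of the 10 was 4.22e-05, for Cyp2b10.

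As a share of the fresh IP mean, the supernatant of fasted mice held 1.39% for Nr1i3 and 26.5% for Ahr, and that of fed mice 1.51% and 14.9%. The 15 hepatocyte markers had shares of 2.39 to 26.7% (median 4.51%) in fasted and 2.10 to 13.6% (median 3.29%) in fed mice. In fasted mice Ahr stood just under the highest marker, Apoa1, and in fed mice Ahr and Por (16.5%) stood above it. Cyp1a2 had 12.2% in fasted and 4.15% in fed mice, and Cyp2a5 10.1% and 2.89%. The share of Nr1i3 is uncertain, since Tomm40l on the other strand had as many or more CPM in the supernatant means and the reads of both genes cannot be told apart. How much of the supernatant signal comes from hepatocyte nuclei left there was not tested.

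**Figure D4:**
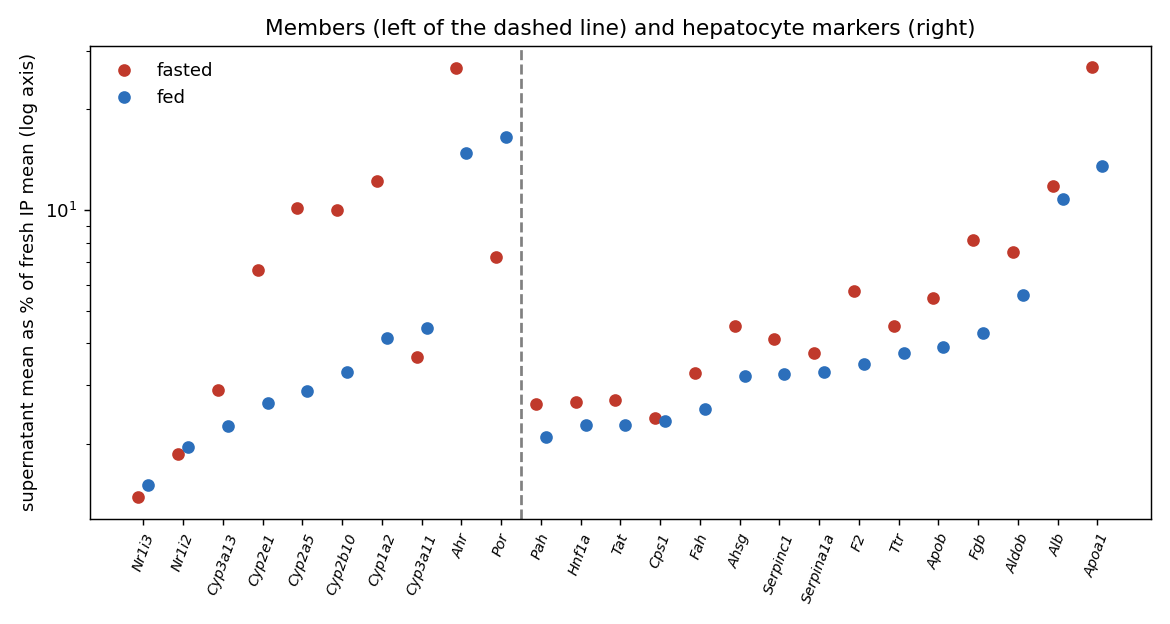
Mean CPM in supernatant as a percentage of mean CPM in fresh IP (y axis, log scale) of the 10 genes and of 15 hepatocyte markers, in fasted (red) and fed (blue) mice. Nr1i3 and Nr1i2 sit below 2% and Ahr at 26.5% in fasted and 14.9% in fed mice.

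Fasting in supernatant shows the same transcripts in the nuclei that were not pulled down. Of the 10 genes 2 rose, Nr1i3 and Por, where 3.38% of the 13921 genes tested did, and the other 8 did not pass, where 2.84% of genes fell. Nr1i3 had 6.17, 5.98 and 6.26 CPM in fasted and 3.96, 4.13 and 3.06 CPM in fed supernatants (0.73 ± 0.13, adjusted p = 0.0319). Por had 83.2, 68.6 and 95.5 CPM in fasted and 60.4, 54.4 and 58.3 CPM in fed supernatants (0.52 ± 0.15, adjusted p = 0.049). In both the groups did not overlap, yet the call of Nr1i3 ended without each of the 6 libraries (0.62 to 0.80, adjusted p = 0.0574 to 0.111) and that of Por without any but fasted B (0.41 to 0.55, adjusted p = 0.0874 to 0.151). The Nr1i3 call is uncertain for the overlap with Tomm40l as well, which in supernatant was at -0.33 (adjusted p = 0.26).

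The other genes did not pass edgeR's test in supernatant. Cyp1a2 had 49, 22 and 28 counts in fasted and 48, 115 and 68 counts in fed supernatants (-1.40 ± 0.47, adjusted p = 0.0841), and Cyp2b10 16, 1 and 33 counts in fasted and 20, 26 and 15 counts in fed supernatants (-0.44 ± 1.04, adjusted p = 0.78). Ahr averaged 30.9 ± 4.93 CPM in fasted and 25.5 ± 3.83 CPM in fed supernatants (0.28 ± 0.18, adjusted p = 0.293), and Cyp2e1 53.3 ± 10.2 and 41.8 ± 10.4 CPM (0.36 ± 0.27, adjusted p = 0.361), both overlapping. Cyp2a5 was at -1.02 ± 0.44, adjusted p = 0.135, Nr1i2 at 0.96 ± 0.41, adjusted p = 0.121, Cyp3a11 at 0.67 ± 0.41, adjusted p = 0.251, and Cyp3a13 at 0.35 ± 0.35, adjusted p = 0.514. DESeq2 called 5 of the 10 and 1881 of all genes, adding Nr1i2, Cyp1a2 and Cyp2a5 (adjusted p = 0.0299, 0.0144 and 0.0456). Beside these values stands the summed hepatocyte marker level of 990.4 to 1629 CPM in fasted and 628 to 1124 CPM in fed supernatants, with 1 of the 15 markers called, Apoa1, which was higher. The 11 lymphocyte markers summed to 1778 to 2062 CPM in fasted and 2299.8 to 3155 CPM in fed supernatants, without overlap, and 1 of them, Bank1, was lower. The sums of the other lists overlapped, at 3431 to 4598 and 2759.7 to 3615 CPM for 13 endothelial markers (Lyve1 and Stab1 higher), 3947 to 5577 and 5210.0 to 7289 CPM for 12 Kupffer cell markers (Cd163 and Itgam higher), and 777 to 920.4 and 828 to 1285 CPM for 11 stellate cell markers (Col3a1 lower). The part of these cells in the supernatant values of the 10 genes was not tested.

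The difference of the fasting response between fresh IP and supernatant was tested itself. It was called for 3 of 10 genes, higher in IP for Por (1.14 ± 0.34, adjusted p = 0.0372; 3.71% of the 14322 genes tested were higher) and lower in IP for Cyp2a5 (-1.87 ± 0.48, adjusted p = 0.0145) and Ahr (-0.88 ± 0.28, adjusted p = 0.042; 5.83% of genes were lower). Cyp2e1 (-1.36 ± 0.44, adjusted p = 0.0511) and Cyp1a2 (-1.63 ± 0.58, adjusted p = 0.0633) lay just short of the threshold. With the mouse as a block 6 of the 10 genes were called, where 10.2% of all genes were, and they were these 5 and Cyp2b10 (-1.69, adjusted p = 0.0375). Without the block Cyp2b10 was at -1.70 ± 1.47, adjusted p = 0.415, and it ran from -3.03 without fasted C of IP to -0.64 without fasted C of supernatant. The responses of Nr1i2 (0.03 ± 0.53), Nr1i3 (0.08 ± 0.29) and Cyp3a11 (0.24 ± 0.48) were not shown to differ. Without 1 library the call of Ahr ended in 11 of 12 cases, all but fed C of fresh IP (-0.97 to -0.72, adjusted p = 0.0523 to 0.129), that of Por in 7 of 12, namely without A or B of fed IP, A or B of fasted supernatant or any fed supernatant (1.03 to 1.18, adjusted p = 0.0623 to 0.0844), and that of Cyp2a5 without A of fasted supernatant (-1.58, adjusted p = 0.0565). Cyp1a2 passed without fed supernatant B (-2.01, adjusted p = 0.039), and Cyp2e1 without fasted IP B or fed IP A (-1.57 and -1.54, adjusted p = 0.0337 and 0.0377).

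Levels of different genes were compared per kb of counted span. In fresh IP of fasted mice the order was Nr1i3 (90.6 CPM per kb), Cyp2e1 (71.98), Cyp3a11 (27.1), Por (24.5), Nr1i2 (12.5), Cyp3a13 (6.27), Ahr (3.15), Cyp2a5 (2.46), Cyp1a2 (0.936) and Cyp2b10 (0.136). Only Nr1i3 and Cyp2e1, and Cyp3a11 and Por, overlapped in their ranges over libraries with the next gene. In fresh IP of fed mice it was Cyp2e1 (141 CPM per kb), Nr1i3 (50.4), Cyp2a5 (17.7), Cyp3a11 (13.998), Por (7.56), Cyp1a2 (7.38), Cyp3a13 (6.36), Nr1i2 (6.17), Ahr (4.64) and Cyp2b10 (0.563). There the genes from Por to Ahr overlapped each with the next, as did Cyp2a5 with Cyp3a11. The orders in frozen IP were the same as in fresh IP for each feeding state, with the same overlaps.

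**Figure D5:**
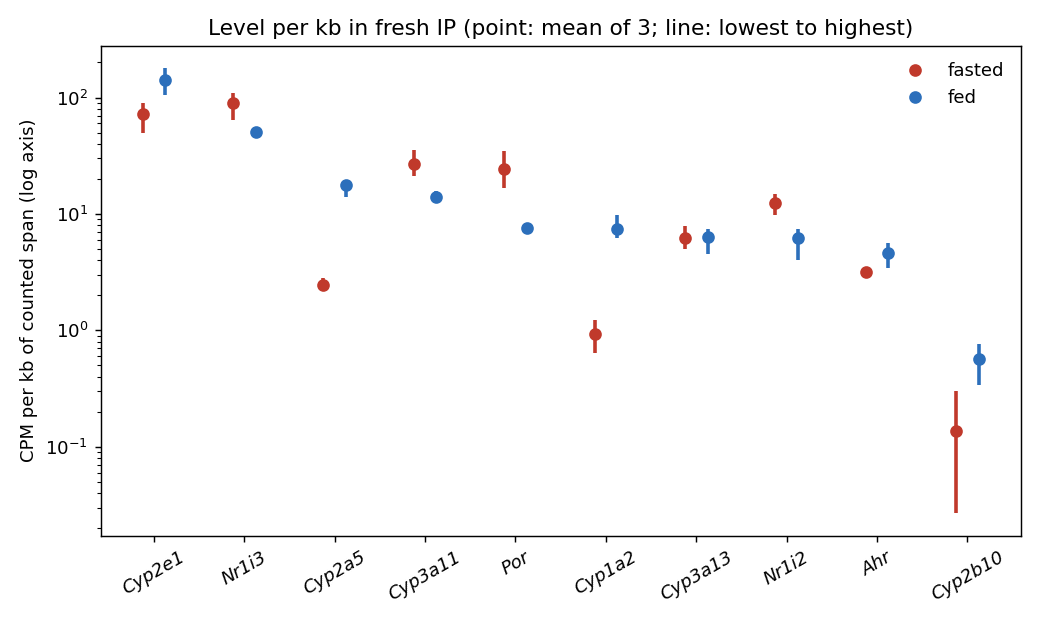
Level per kb of counted span (y axis, log scale) of the 10 genes in fresh IP, with the mean of 3 libraries as a point and the lowest to highest library as a line, fasted in red and fed in blue. Cyp2e1 leads in fed mice, and Cyp2a5 and Cyp1a2 drop down the order in fasted mice.

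Partners of the receptors were looked at in the same libraries. For this list and those below, the shares of all genes called higher and lower with fasting were 12.4% and 12.6% in fresh IP. They were 11% and 11.6% in frozen IP and 3.38% and 2.84% in supernatant. Of 18 tested genes among receptor partners, chaperones and coregulators, 5 were higher and 1 lower in fasted than in fed fresh IP (median 0.08). Rxra, the dimer partner of both nuclear receptors, averaged 1453 ± 315 CPM in fasted and 1173 ± 321 CPM in fed mice (0.33 ± 0.31, adjusted p = 0.371), and Arnt, the partner of AHR, 209 ± 9.51 and 236 ± 29.5 CPM (-0.16 ± 0.11, adjusted p = 0.404). The coactivator gene Ppargc1a rose (1.95 ± 0.28, adjusted p = 0.00168), as did the chaperone genes Hsp90aa1 (1.29 ± 0.50, adjusted p = 0.0363) and Ptges3 (0.76 ± 0.22, adjusted p = 0.0198), while Nr3c1, the glucocorticoid receptor gene, fell (-0.75 ± 0.08, adjusted p = 0.00543). In frozen IP 3 of 18 were higher and 1 lower (median 0.21), and in supernatant 4 and 2 of 20 (median -0.01).

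Of 13 genes of electron supply and heme synthesis other than Por, 2 were higher and 4 lower in fresh IP, likewise 2 and 4 in frozen IP (median -0.26 and -0.24). Alas1, the rate-limiting enzyme of heme synthesis, averaged 645 ± 211 CPM in fasted and 131 ± 39.96 CPM in fed mice (2.31 ± 0.37, adjusted p = 0.00272), and Cpox, a later enzyme of that path, rose too (1.23 ± 0.15, adjusted p = 0.00165). Cyb5a, the gene of the cytochrome b5 that can pass a further electron to P450s, fell (-1.18 ± 0.22, adjusted p = 0.00578). The related gene Cyb5b fell too (-1.39 ± 0.13, adjusted p = 0.00116), as did Cyb5r3 and Ppox. In supernatant Alas1 and Cpox rose as well, 2 of 13.

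Among the other P450s of the Cyp1, Cyp2a, Cyp2b and Cyp3a families, 5 of 11 tested in fresh IP and 5 of 12 in frozen IP fell, and the others did not pass (median -0.52 and -0.76). In fresh IP they were Cyp3a16 (-2.99 ± 0.55, adjusted p = 0.00432), Cyp2a4 (-2.28 ± 0.56, adjusted p = 0.00785), Cyp3a44 (-2.15 ± 0.71, adjusted p = 0.0237), Cyp2b13 (-1.89 ± 0.53, adjusted p = 0.0142) and Cyp3a41a. The Cyp3a paralogs of Cyp3a11 that passed therefore lay on the other side of 0 from it. Cyp2b13 averaged 419 ± 144 CPM in fasted and 1581 ± 836 CPM in fed mice. Of 23 target genes outside the P450s, 1 was higher and 9 lower in fresh IP, and the same numbers held in frozen IP (median -0.35 and -0.42). Gadd45b, a stress gene, rose (4.55 ± 0.51, adjusted p = 0.00107), and Thrsp of lipogenesis (-6.20 ± 0.98, adjusted p = 0.00242), the carboxylesterase gene Ces2c (-2.85 ± 0.68, adjusted p = 0.00633) and the glutathione transferase gene Gsta2 (-2.83 ± 0.92, adjusted p = 0.0192) fell. In supernatant the median of the 20 tested was 0.07.

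The clock output factors DBP, TEF and HLF are known in mouse liver to control Nr1i3, Por and Alas1. Dbp averaged 0.798 ± 0.185 CPM in fasted and 17.3 ± 1.18 CPM in fed mice (-4.39 ± 0.20, adjusted p = 0.0002), Tef fell (-0.84 ± 0.13, adjusted p = 0.0042), and Hlf was at -0.06 ± 0.23, adjusted p = 0.834. In the same libraries Nr1i3, Por and Alas1 rose, as given above.

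The genes with the profile most like each of the 10 over the 6 groups were found by the root mean square distance of centred group means of log2 CPM, among 14445 genes. The 6 groups share mice, so this is a description. For Nr1i2 they were Arhgef26, Slc4a4 and Igsf11 (0.07 to 0.13), and for Nr1i3 Glt1d1, Igsf11 and Acox2 (0.13 to 0.17). For Por they were Plk3, Eci1 and Decr1 (0.05 to 0.08), of which Eci1 and Decr1 encode enzymes of unsaturated fatty acid oxidation. Ahr was nearest to Shf, Pgrmc1 and Pid1 (0.02 to 0.07). Cyp1a2 was nearest to Dct, Sc5d and Ces2c (0.16 to 0.20), Cyp2a5 to Dclk3, Cyp2b10 and Nudt7 (0.18), and Cyp2b10 to Gstm6, Nudt7 and Sc5d (0.09 to 0.14). Cyp2e1 was nearest to C77080, Dixdc1 and Klkb1 (0.08 to 0.12), Cyp3a11 to Nnmt, Tmem82 and Kctd15 (0.07 to 0.11), and Cyp3a13 to Glyat, Sorbs2 and Grb14 (0.06 to 0.07). Among the 10 genes themselves the closest pairs were Cyp2a5 with Cyp2b10 (0.18) and Nr1i2 with Nr1i3 (0.19), and Cyp3a11 lay 0.53 from Cyp3a13.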

How the data were processed

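Nuclear RNA of 18 liver libraries was read as gene counts. Per the labels' protocols, RNA was made from nuclei in Trizol and sequenced from a stranded kit without poly-A selection. STAR 2.4.2a, DESeq2 1.24.0 and mm10 are named in the submitters' processing notes without their roles, and the counting tool and its strand setting are not given in the sources used here. The authors deposited raw counts per gene, not normalized, with a length that equals end minus start for each gene. The authors also deposited log2 fold changes and adjusted p-values of their own fasting comparisons, used only where named. A further 6 columns of the count table match no sample and were not used.

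Each of 7 comparisons was fitted over all genes with edgeR 4.0.16 (glmQLFit, glmQLFTest, TMM, filterByExpr) in R 4.3.3, with only its own groups, no block, and Benjamini-Hochberg adjustment. CPM were scaled over all 18 libraries, and log2 CPM used a prior count of 2. The SE takes libraries as independent. The fits were tested on simulated counts, drawn with the same spread setting for every gene and no mice shared between preparations. The real libraries differ from that in both respects, so the simulation does not show how the fits behave there. Genes were named by rule, as all 10 members, up to 4 of each pathway list with the largest change in fresh IP, Rxra, Arnt, Dbp, Tef, Hlf, a marker of each of 5 cell types and the 3 nearest profiles; others named were chosen after their values were seen. Some genes counted in a list are not reported here by name. The members and lists were chosen with earlier results of these data known. Whether column letters pair libraries was checked on each library's deviation from its group mean, in well-expressed genes. Between frozen and fresh IP equal letters gave correlations of 0.555 to 0.902, and of 0.152 to 0.437 between fresh IP and supernatant, and unequal letters gave -0.586 to 0.0101. The labels give the mouse of each sample and the preparations share them, so the letter served as the block of an alternative. Other alternatives were RLE factors, no scaling, DESeq2 1.42.0, no filter, all 18 libraries in 1 fit, and leaving out each library.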

Additional observations from a re-analysis of the deposited data

Results flagged for a closer look

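For 3 of the 10 genes the fasting response differed between fresh IP and supernatant by the test of the difference itself. Of the 14322 genes tested, 3.71% were higher and 5.83% lower in IP. Por differed by 1.14 ± 0.34, adjusted p = 0.0372, with a response of 1.72 in IP and 0.52 in supernatant. Cyp2a5 differed by -1.87 ± 0.48, adjusted p = 0.0145, with -2.83 in IP and -1.02 in supernatant. Ahr differed by -0.88 ± 0.28, adjusted p = 0.042, with -0.54 in IP and 0.28 in supernatant, neither of them called alone. Leaving out 1 library ended the call of Ahr in 11 of 12 cases, of Por in 7 and of Cyp2a5 in 1. With all 18 libraries in 1 edgeR fit Ahr and Por did not pass (adjusted p = 0.0765 and 0.0522). The part of hepatocyte nuclei left in the supernatant in these responses was not tested.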

How the results depend on the processing

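All 10 calls of IP against supernatant kept their direction and their side of the threshold under every alternative run, and no gene of the 10 was called between frozen and fresh IP, or in the difference of their responses, in any of 180 values each, of which 38 and 40 changed sign. Between frozen and fresh IP the largest absolute log2 difference among the 10 genes was 0.11. Without fasted C of frozen or of fresh IP it was 0.71 or 0.62, for Cyp2b10, with fasted C of the other preparation kept. The cause of the changes below was not tested. Leaving out 1 library gave 1429 to 2643 genes for fasting in fresh IP (3145 with all) and 4 to 7 of the 10, 1168 to 2271 genes in frozen IP (2918 with all), 197 to 624 genes in supernatant (866 with all) and 0 to 1 of the 10, 409 to 711 genes between frozen and fresh IP (679 with all), and 771 to 1485 genes (1367 with all) and 0 to 3 of the 10 in the difference of response between IP and supernatant. DESeq2 gave 1881 genes and 5 of the 10 for fasting in supernatant and 2340 genes and 5 of the 10 for that difference of response. For fasting in supernatant RLE factors gave 1 of the 10, with Por no longer called (adjusted p = 0.051). All 18 libraries in 1 edgeR fit also gave 1 there, but it was Cyp1a2, which was lower (-1.40, adjusted p = 0.046). Nr1i3 and Por did not pass in that fit (adjusted p = 0.0771 and 0.315). For the difference of response all 18 libraries gave 1. In the paired fits, with the mouse as a replicate block, 6 of the 10 were called in the difference of response and 2168 genes between frozen and fresh IP, and the block changed no other call of the 10.

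Signs changed only in uncalled values. Cyp3a13 in fresh IP was at -0.0132 with RLE factors, -0.0132 by DESeq2, -0.0087 without a filter and -0.0207 with all 18 libraries, and ran from -0.20 to 0.15 without 1 library, and from -0.28 to 0.0149 in frozen IP. Without 1 library Cyp2b10 in supernatant ran from -1.44 to 0.10, and the difference of response between IP and supernatant ran from -0.21 to 0.50 for Nr1i2, -0.11 to 0.30 for Nr1i3 and -0.10 to 0.63 for Cyp3a11. Each group had 3 mice, and Cyp2b10 was at 1 to 33 counts in fasted supernatants. How small a change of such scarce genes could be detected was not tested.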

Other observations

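Cyp1a2, Cyp2a5 and Cyp2e1 are known as genes of hepatocytes near the central vein, so other genes of the liver zones are given beside them. Of 14 pericentral genes, 1 was higher and 4 were lower in fasted than in fed fresh IP (median -0.16), and in frozen IP 1 and 5 (median -0.21). Of all genes tested 12.4% were higher and 12.6% lower in fresh IP, and 11% and 11.6% in frozen IP. Lhpp rose (851 ± 277 CPM in fasted and 367 ± 58.7 CPM in fed mice, adjusted p = 0.0117), and Slc1a4, an amino acid transporter gene (-1.50 ± 0.35, adjusted p = 0.00995), the P450 gene Cyp2c29 (-1.20 ± 0.20, adjusted p = 0.00376) and Rnf43, an inhibitor of Wnt receptors (-1.03 ± 0.15, adjusted p = 0.00354), fell. Of 12 periportal genes 1 was higher and 5 were lower in both preparations (median -0.32 and -0.23). Aspg (-1.43 ± 0.09, adjusted p = 0.000855), the histidine ammonia-lyase gene Hal (-1.19 ± 0.35, adjusted p = 0.0164), the P450 gene Cyp2f2 (-1.07 ± 0.41, adjusted p = 0.0337) and the immunoglobulin receptor gene Pigr (-0.92 ± 0.21, adjusted p = 0.00851) fell, and Hsd17b13 rose. The summed pericentral level was 2684 to 3795 CPM in fresh IP of fasted and 2799 to 3458 CPM in that of fed mice, and the summed periportal level 3001 to 4962 and 2254 to 5342 CPM, each overlapping between the feeding states.

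The summed level of 7 cholangiocyte markers in fresh IP was 197 to 248 CPM in fasted and 561 to 581 CPM in fed mice. Of these markers 4 could be tested for fasting there, and only Pkhd1 was called (-1.33 ± 0.10, adjusted p = 0.00107). Between IP and supernatant 5 could be tested. Pkhd1 (4.95 ± 0.28), Sox9 and Spp1 were higher in IP, Krt7 was lower and Cftr was not called. The sum is therefore not read as a level of cholangiocytes.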
